A study of Mus musculus with 2 samples.

Results

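Genes of pyrin, inflammasome and interleukin-1 signalling were followed through single blood cells of mevalonate kinase mutant and wildtype mice. They were Mefv, Pycard, Casp1, Nlrp3, Il1b, Il18, Il1rn, Il1r2, Gsdmd and Txnip. The genes were chosen by their roles in the pathway and found by symbol, and they make up 10 of the 27998 listed genes. Peripheral blood mononuclear cells came from female C57Bl/6 mice 10 weeks old, either MvkV377I/del91 (1 allele with the V377I substitution and 1 named del91) or Mvk+/+. Blood of 3 mice was pooled per genotype, and each pool gave 1 droplet library with 3' counting of unique molecular identifiers (UMIs, 1 per captured RNA molecule). The genotypes are therefore compared by 1 library each, with no test, and all intervals cover counting error only. They show neither the spread between mice nor that between libraries. Those of levels and ratios also take each UMI as independent, which leaves out the spread between cells.

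Pyrin, the product of Mefv, and NLRP3 are sensors. Once active, they gather the adaptor ASC (encoded by Pycard), which brings in caspase-1 (Casp1). Caspase-1 cleaves pro-interleukin-1 beta (Il1b) and pro-interleukin-18 (Il18) to their active forms, and it cleaves gasdermin D (Gsdmd), whose pores release the cytokines and can kill the cell. Il1rn encodes the interleukin-1 receptor antagonist and Il1r2 the decoy receptor, both of which damp interleukin-1. Txnip, the thioredoxin-interacting protein, restrains glucose uptake and is also known as a partner of NLRP3. Mevalonate kinase works in the pathway that makes isoprenoids. Isoprenoids anchor RhoA to membranes, and RhoA signalling keeps pyrin phosphorylated, so that 14-3-3 proteins hold it inactive. In mouse and human blood the sensor genes Mefv and Nlrp3 and the cytokine gene Il1b are best known from monocytes and neutrophils.

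The libraries held 14513059 (mutant) and 15385199 (wildtype) UMIs. Barcodes with at least 800 UMIs, at least 200 genes and at most 10% mitochondrial UMIs were taken as cells, 4190 mutant and 5225 wildtype, with median depths of 1968 and 2036 UMIs. Of these, 3866 and 4947 fell into 5 types set by marker UMIs. There were 2300 mutant and 2833 wildtype T-like cells, 1274 and 1137 B-like cells, 194 and 877 NK-like cells, 45 and 27 classical-like monocytes, and 53 and 73 non-classical-like monocytes. The leading genes of the lymphocyte types included their own markers (Cd3g and Cd8b1, Cd79a and Ebf1, Ncr1 and Klra8). Classical-like monocytes were led by Lyz2 and Chil3, and non-classical-like monocytes by Ear2 and Lst1. A type is a range of marker scores: 2 mutant and 3 wildtype classical-like cells, and 3 and 5 non-classical-like cells, lay within 3 UMIs of the split between the monocytes. Globin RNA stood at 2437 to 2717 CPM (UMIs of a gene scaled to 1000000 UMIs of the type) in the mutant types and at 239 to 368 CPM in the wildtype types. The libraries shared 28 cell barcodes, 0.668% of mutant and 0.536% of wildtype cells. Mvk itself had 42 mutant and 58 wildtype UMIs, a ratio of 0.952 (0.624 to 1.44). A 3' count need not see either allele, so this value is no check of the labels.

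Upstream sequences are shown for the 4 genes with a ratio of libraries whose interval left out 1 in some type: Pycard, Il1b, Il18 and Txnip. Each is the 250 bases before the RefSeq start on build GRCm38.p6, printed in the direction of the gene. Capitals mark matches on either strand to 6 searched motifs: TGANTCA, the AP-1 site; CACGNG, which covers E-boxes and the parts of the carbohydrate response element; GAGGAAG, a PU.1-type site; TTGCNNAA, a C/EBP-type site; CCAAT; and TATAAA.
Pycard: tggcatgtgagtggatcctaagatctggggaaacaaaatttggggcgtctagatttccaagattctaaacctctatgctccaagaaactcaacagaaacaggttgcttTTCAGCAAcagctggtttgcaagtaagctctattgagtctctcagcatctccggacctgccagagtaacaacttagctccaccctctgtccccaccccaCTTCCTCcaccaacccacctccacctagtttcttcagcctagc
Il1b: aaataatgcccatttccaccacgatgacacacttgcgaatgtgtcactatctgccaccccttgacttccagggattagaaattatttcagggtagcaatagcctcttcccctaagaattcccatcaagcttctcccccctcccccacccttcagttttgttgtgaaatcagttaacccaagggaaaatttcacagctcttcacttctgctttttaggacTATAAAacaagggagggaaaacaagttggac
Il18: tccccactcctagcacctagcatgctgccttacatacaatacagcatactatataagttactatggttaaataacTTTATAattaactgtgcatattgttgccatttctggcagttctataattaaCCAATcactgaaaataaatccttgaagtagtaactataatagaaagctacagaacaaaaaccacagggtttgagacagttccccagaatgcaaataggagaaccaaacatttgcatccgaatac
Txnip: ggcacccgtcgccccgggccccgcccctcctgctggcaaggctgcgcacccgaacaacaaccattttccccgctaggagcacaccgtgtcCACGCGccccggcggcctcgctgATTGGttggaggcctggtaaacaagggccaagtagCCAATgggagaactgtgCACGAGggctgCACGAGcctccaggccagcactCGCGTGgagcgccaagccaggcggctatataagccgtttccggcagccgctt
The Pycard stretch (chr7:127993868-127994117, minus strand) held 1 GAGGAAG and 1 TTGCNNAA, both on the reverse strand, motifs present in 10.6% and 9.56% of 32851 promoter stretches of that length. The Il1b stretch (chr2:129371140-129371389, minus strand) held 1 TATAAA, 31 to 26 bases before the start, a motif present in 12.4% of them. The Il18 stretch (chr9:50554450-50554699, plus strand) held 1 CCAAT and 1 TATAAA on the reverse strand. The Txnip stretch (chr3:96557707-96557956, plus strand) held 4 CACGNG sites and 2 CCAAT sites, found at least once in 23.5% and 33.9% of stretches. Its CACGAG pair lay 85 to 80 and 74 to 69 bases before the start. These matches are letters only and were not tied to any measurement here. Of the 10 genes, 9 had a RefSeq stretch.

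Among the 5 types the sensors were found almost only in monocytes. Mefv (chr16:3707218-3718097, minus strand) had 11 UMIs over the 5 types and both libraries. In classical-like monocytes it had 4 mutant and 2 wildtype UMIs, 22.2 (6.05 to 56.9) and 17.9 (2.17 to 64.8) CPM. Non-classical-like monocytes held 1 and 2 UMIs, and T-like cells 1 and 1. No Mefv UMI was found in B-like or NK-like cells, where a count of 0 allows up to 1.15 and 1.30 CPM in mutant and wildtype B-like cells and 7.02 and 1.84 CPM in NK-like cells. The libraries overlapped in both monocyte types, and Mefv was too shallow for a difference to be detectable.

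Nlrp3 (chr11:59541568-59566956, plus strand) had 21 UMIs in the 5 types, 20 of them in monocytes. Classical-like monocytes had 10 mutant and 4 wildtype UMIs, 55.5 (26.6 to 102) and 35.9 (9.78 to 91.9) CPM. Non-classical-like monocytes had 3 and 3 UMIs. T-like cells held 0 and 1, and B-like and NK-like cells none in either library. With the libraries joined, Nlrp3 stood at 48.0 CPM in classical-like and 21.0 CPM in non-classical-like monocytes, whose intervals overlapped, and both lay above T-like cells at 0.0832 CPM.

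**Figure D1:**
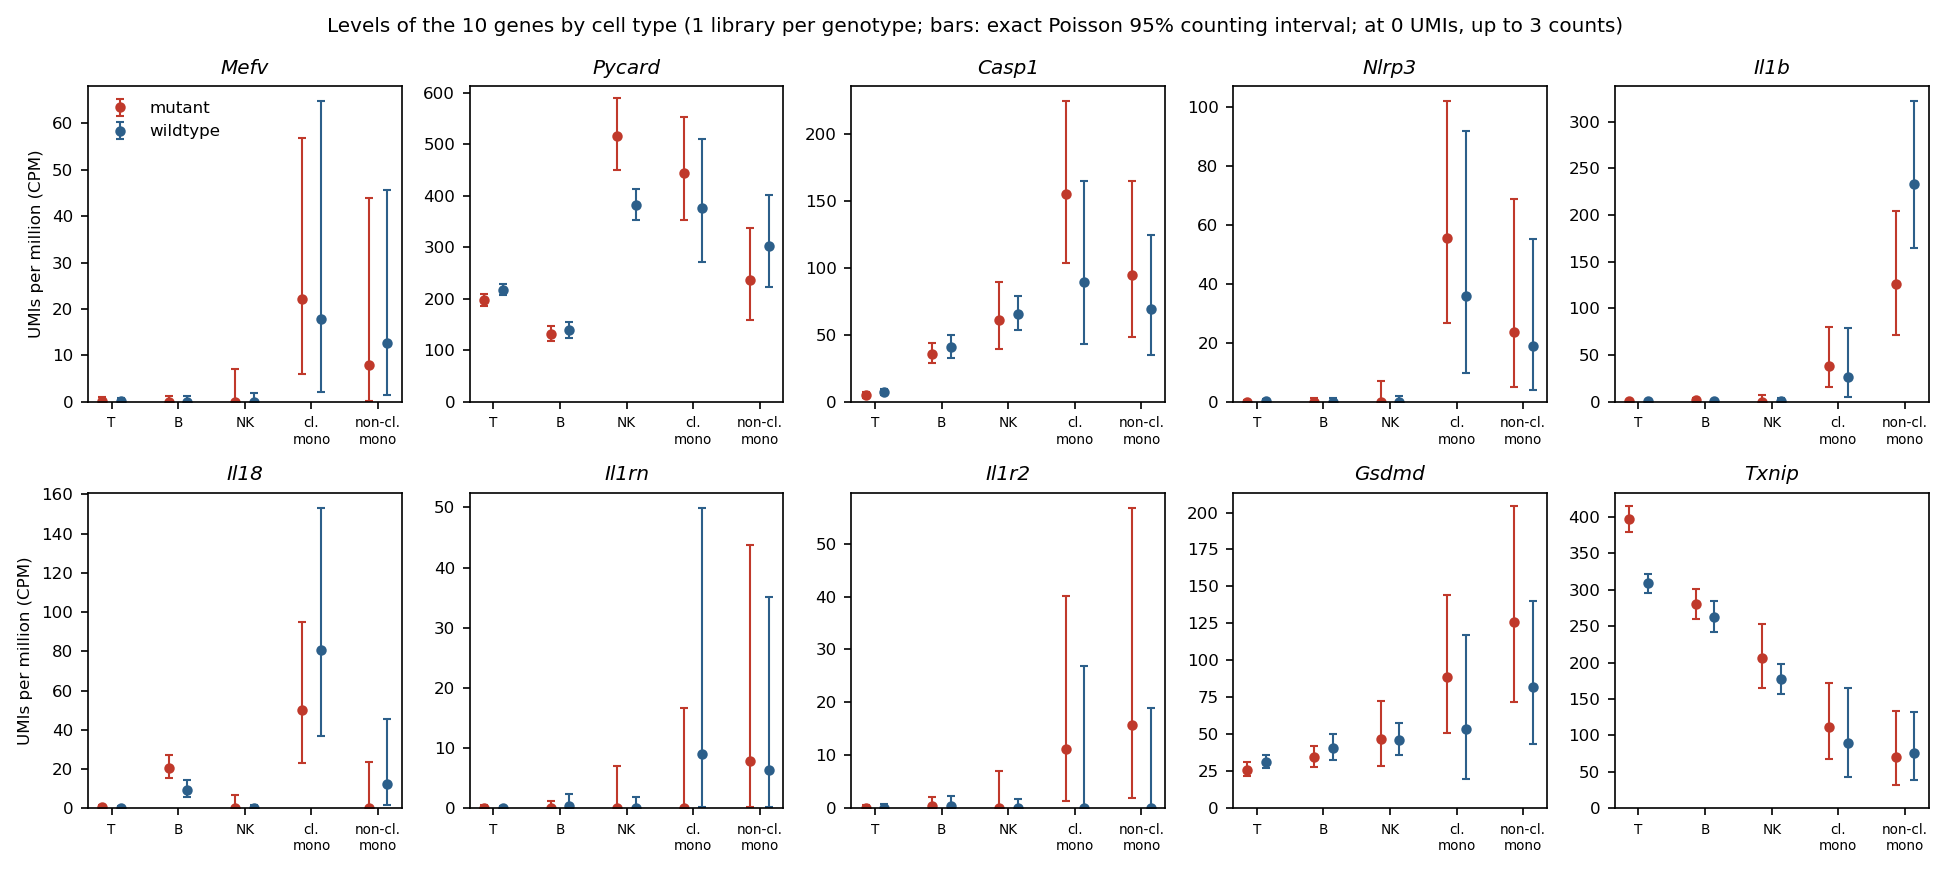
Level of each gene (vertical axis, CPM; linear and scaled per gene) in T-like, B-like and NK-like cells and in classical-like and non-classical-like monocytes (cl. mono, non-cl. mono), with 1 point per library and bars for the 95% counting interval (at 0 UMIs, up to 3 counts). Mefv, Nlrp3 and Il1b lie near 0 outside monocytes, while Txnip falls from T-like cells to monocytes.

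Pycard, the adaptor gene (chr7:127989708-127993867, minus strand), had 4223 UMIs in the 5 types. Over both libraries joined it stood highest in classical-like monocytes (418 CPM) and NK-like cells (410 CPM), whose intervals overlapped. Non-classical-like monocytes (273 CPM) and T-like cells (209 CPM) also overlapped, and B-like cells were lowest at 136 CPM. In free RNA, taken from barcodes with 1 to 20 UMIs, Pycard stood at 154 CPM in the mutant and 254 CPM in the wildtype, above its level in B-like cells. Scaled by the globin RNA of each type, free RNA would give 39.6 of the 1009 mutant and 118 of the 1504 wildtype UMIs in T-like cells, and 21.5 of 345 and 47.2 of 321 in B-like cells.

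In NK-like cells Pycard had 221 mutant and 623 wildtype UMIs, 517 (451 to 590) against 382 (352 to 413) CPM. The mutant level was the higher, and the intervals did not overlap. The ratio was 1.35 (1.16 to 1.58), below the 1.5-fold used here to name a gene as past the fold. Pycard UMIs were seen in 58.8% of mutant and 47.4% of wildtype NK-like cells, at median depths of 2007 and 1663 UMIs. With each cell thinned to 800 UMIs the ratio was 1.21 (0.920 to 1.58), and that interval held 1.

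In T-like cells Pycard went the other way by a small amount, with 1009 and 1504 UMIs, 197 (185 to 210) and 218 (207 to 229) CPM, a ratio of 0.907 (0.837 to 0.983). Thinned to 800 UMIs per cell the ratio was 1.01 (0.880 to 1.17), so its direction turned. With free RNA subtracted it was 0.929 (0.855 to 1.01), and with at least 6 marker UMIs per cell 0.923 (0.848 to 1.005), both with intervals that held 1. NK markers moved with it: all 8 of 8 listed markers had UMIs in T-like cells, summing to 54.0 CPM in the mutant and 133 CPM in the wildtype, beside 271 and 918 CPM in free RNA. Their part in the result was not tested.

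B-like cells had 345 mutant and 321 wildtype Pycard UMIs, a ratio of 0.948 (0.812 to 1.11). Classical-like monocytes had 80 and 42, a ratio of 1.18 (0.802 to 1.76), and 20 of the 80 mutant UMIs were in 1 cell. Without the highest cell of each library that ratio was 1.02 (0.670 to 1.59), and under the first way of scoring markers that was tried it was 0.688. Non-classical-like monocytes had 30 and 48 UMIs, a ratio of 0.778 (0.476 to 1.25). In these 3 types each interval held 1.

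Casp1, the protease (chr9:5298517-5307265, plus strand), had 455 UMIs in the 5 types. Over both libraries joined its order ran from classical-like monocytes (130 CPM) through non-classical-like monocytes (80.5 CPM) to NK-like cells (64.6 CPM), neighbours with overlapping intervals. B-like cells (38.1 CPM) and T-like cells (6.15 CPM) followed and stood apart. In the mutant alone the NK-like and B-like intervals overlapped, at 39.72 to 89.09 and 28.76 to 43.65 CPM. Casp1 was lower in T-like cells than in every other type, although T-like cells had more Pycard than B-like cells did. Free RNA held Casp1 at 12.6 (mutant) and 23.9 (wildtype) CPM, above the T-like level, and would give 3.25 of 25 and 11.1 of 49 UMIs there.

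In classical-like monocytes Casp1 had 28 mutant and 10 wildtype UMIs, 156 (103 to 225) and 89.7 (43.0 to 165) CPM, a ratio of 1.73 (0.817 to 4.00). It was past the fold, with an interval that held 1. Non-classical-like monocytes had 12 and 11 UMIs, a ratio of 1.36 (0.549 to 3.40). The lymphocyte ratios lay below 1: 0.690 (0.408 to 1.14) in T-like cells with 25 and 49 UMIs, 0.873 in B-like cells with 93 and 94, and 0.927 in NK-like cells with 26 and 107. None of the 5 intervals left out 1. Platelet markers also stood higher in mutant classical-like monocytes, where all 6 of 6 had UMIs in both libraries, at 1599 CPM against 1059 CPM. This was not particular to that type, since they were higher in the mutant in every other type as well. The levels (mutant, wildtype) were 235.9 and 56.83 CPM in non-classical-like monocytes, 67.1 and 21.41 CPM in T-like cells and 102.9 and 92.54 CPM in NK-like cells. Free RNA held 394.5 CPM of these markers in the mutant and 139 CPM in the wildtype. The part of platelet markers in the ratios of classical-like monocytes was not tested.

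Il1b (chr2:129364570-129371139, minus strand) had its highest level among the 5 types in non-classical-like monocytes. With the libraries joined it stood at 186 CPM there, above 34.3 CPM in classical-like monocytes and 0.971 to 1.22 CPM in the lymphocyte types. In the mutant alone the intervals of the 2 monocyte types overlapped, at 71.91 to 204.3 and 15.63 to 80.08 CPM. T-like cells had 5 and 9 UMIs, B-like cells 5 and 1, and NK-like cells 0 and 2. Free RNA held Il1b at 2.53 CPM in the mutant (1 UMI) and 19.5 CPM in the wildtype (9 UMIs). Scaled by the globin RNA in each type, it would put 9.11 Il1b UMIs into wildtype T-like cells, where 9 were counted. Wildtype B-like and NK-like cells would get 3.63 and 2.48, where 1 and 2 were counted. In the mutant, T-like, B-like and NK-like cells would get 0.649, 0.353 and 0.0583, where 5, 5 and 0 were counted. Wildtype non-classical-like monocytes would get 0.270, where 37 were counted.

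In non-classical-like monocytes Il1b had 16 mutant and 37 wildtype UMIs, 126 (71.9 to 204) and 234 (165 to 322) CPM. The mutant level was the lower, with a ratio of 0.538 (0.280 to 0.992), and the 2 levels' own intervals overlapped. UMIs were found in 8 of 53 mutant cells, 15.1% (6.75 to 27.6), and in 22 of 73 wildtype cells, 30.1% (19.9 to 42.0). The median depths of the type were 2137 and 1952 UMIs, and T-like cells, which should lack Il1b, had a UMI in 0.217% and 0.318% at median depths of 2116 and 2309.

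Single cells held few of these molecules. In the mutant 5 cells had 1 UMI and 1 cell each had 2, 4 and 5. In the wildtype 14 cells had 1, 3 had 2, 3 had 3 and 2 had 4. Without the highest cell of each library the ratio was 0.424 (0.193 to 0.859). It was 0.233 (0.0604 to 0.649), with 4 mutant UMIs, under the first scoring, which set aside more mutant cells. Thinned to 800 UMIs per cell it was 0.530 (0.148 to 1.58), on 5 and 13 UMIs.

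Neutrophil markers were rare in the non-classical-like monocytes. Of the 7 listed, 2 (mutant) and 3 (wildtype) had UMIs, 39.3 and 69.4 CPM in sum. Retnlg, Mmp8 and Mmp9 were at 0 in both libraries, Cxcr2 and S100a8 were at 0 in the mutant, and S100a9 was at 0 in the wildtype. Csf3r alone gave 4 of the 5 mutant and 9 of the 11 wildtype neutrophil marker UMIs. A UMI of any of the 7 was found in 0 of 8 mutant and 6 of 22 wildtype cells with Il1b. Among cells without Il1b it was found in 5 of 45 and 5 of 51. Whether these few molecules had a part in the Il1b ratio was not tested. Classical-like monocytes had 7 mutant and 3 wildtype Il1b UMIs, a ratio of 1.44 with an interval (0.330 to 8.66) that held 1. Summed over both monocyte types, the 23 and 40 UMIs gave a ratio of 0.509 (0.291 to 0.871). That sum also carries the mix of the types, which differ in Il1b level. The mutant had 45 classical-like and 53 non-classical-like cells, and the wildtype 27 and 73. The part of this mix in the summed ratio was not tested.

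The 5 types left out most of the Il1b in the sample. Of all 126 wildtype Il1b UMIs in cells, 49.2% lay in 10 neutrophil-like barcodes, 0.191% of the cells. In the mutant 12.9% of 70 UMIs lay in 2 such barcodes, and mixed barcodes and those of no lineage held 9 UMIs each. Basophil-like barcodes held 9 of 33 mutant and 8 of 21 wildtype Nlrp3 UMIs, 27.3% and 38.1%. Neutrophil-like barcodes with under 800 UMIs were not counted.

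**Figure D2:**
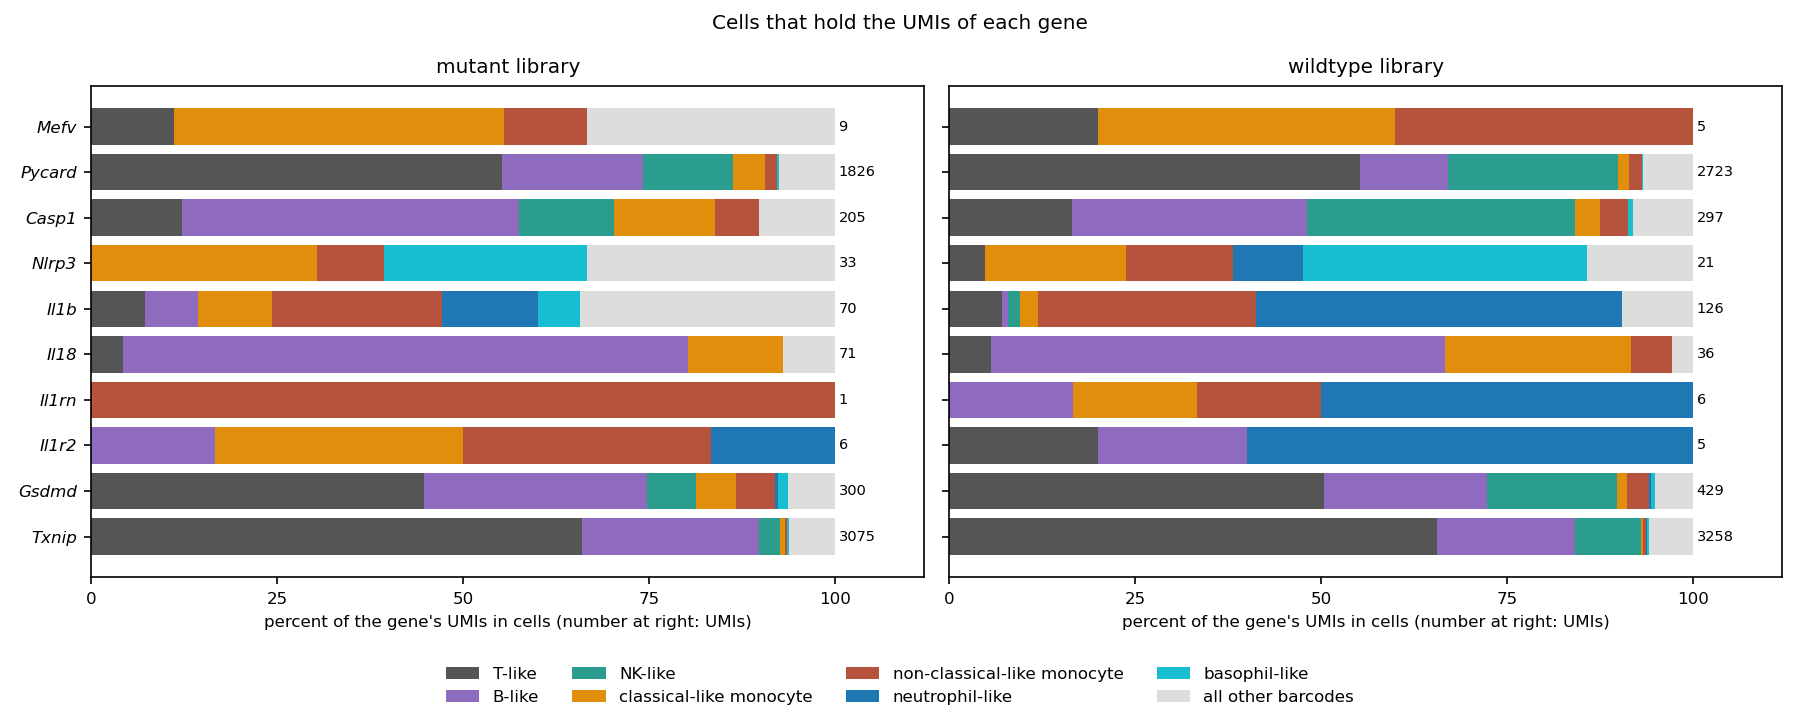
Share of each gene's UMIs (horizontal axis, percent of its UMIs in all cells) by cell type (colours) in the mutant and wildtype library, with the number of UMIs at the right of each bar. Il18 lies mostly in B-like cells, and neutrophil-like barcodes take 49.2% of wildtype Il1b.

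Il18 (chr9:50554827-50581840, plus strand) had 66 mutant and 35 wildtype UMIs in the 5 types. Over both libraries joined its level was highest in classical-like monocytes (61.7 CPM), then 15.5 CPM in B-like cells, an order whose intervals did not overlap. In the mutant alone they did overlap, at 22.85 to 94.86 and 15.54 to 26.99 CPM. B-like cells held 54 and 22 of the Il18 UMIs, more than any other type. Non-classical-like monocytes had 0 mutant and 2 wildtype UMIs, T-like cells 3 and 2, and NK-like cells none. The 0 of NK-like cells allows up to 7.02 CPM in the mutant and 1.84 CPM in the wildtype.

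In B-like cells Il18 had 54 mutant and 22 wildtype UMIs, 20.7 (15.5 to 27.0) and 9.55 (5.99 to 14.5) CPM. The mutant level was higher, and the intervals did not overlap. The ratio was 2.17 (1.30 to 3.73). A UMI was found in 41 mutant cells, 3.22% (2.32 to 4.34), and in 20 wildtype cells, 1.76% (1.08 to 2.70). The intervals of these shares overlapped, and in the mutant 3 cells had 4 UMIs each. T-like cells had a UMI in 0.130% (mutant) and 0.0706% (wildtype). Median depths of the B-like cells were 1592 and 1591 UMIs. Thinned to 800 UMIs per cell the ratio was 2.86 (0.9997 to 9.97), on 16 and 5 UMIs. Without cells scored above 0.2 by the doublet caller Scrublet it was 2.22 (1.32 to 3.87).

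The B-like cells with Il18 differed from the other B-like cells in both libraries. S100a6 UMIs were found in 78.0% of mutant and 80.0% of wildtype Il18 cells, against 19.3% and 13.2% of the others. Zbtb32, a regulator of memory B cells, was seen in 48.8% and 40.0% of them, against 6.81% and 3.85%, and Bhlhe41, a transcription factor of B-1a cells, in 26.8% and 40.0%, against 5.84% and 5.01%. Fcer2a, the CD23 gene of follicular B cells, was rarer in them, at 17.1% and 15.0% against 36.7% and 41.5%. The Il18 cells were also deeper, with medians of 4549 and 4586 UMIs against 1585 and 1587, and the part of depth in these shares was not tested. These 4 genes were chosen after the values were seen.

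Cells with Zbtb32 or Bhlhe41 made up 11.8% of mutant and 8.27% of wildtype B-like cells. Within them Il18 had 36 and 14 UMIs, 57.8 (40.5 to 80.0) and 34.1 (18.6 to 57.2) CPM, a ratio of 1.70 (0.892 to 3.40). Among the rest it had 18 and 8 UMIs, 9.06 and 4.23 CPM, a ratio of 2.14 (0.886 to 5.69). Split by S100a6, which was seen in 21.2% and 14.4% of B-like cells, the ratios were 1.56 (0.882 to 2.85) with it and 2.33 (0.650 to 10.4) without. The mutant level was the higher in each of these 4 subsets, and each interval held 1.

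Monocyte markers in B-like cells were also higher in the mutant, with UMIs of 16 of the 18 listed at 106 CPM against 13 at 62.5 CPM in the wildtype, beside 276 and 254 CPM in free RNA. Ms4a6c alone gave 127 of the 276 mutant and 64 of the 144 wildtype UMIs, and Vcan was at 0 in both. Their part in the Il18 ratio was not tested. Bco2, which overlaps Il18 on the opposite strand, had 4 and 2 UMIs in B-like cells. Whether reads were assigned by strand is not given in the sources used here. In classical-like monocytes Il18 had 9 and 9 UMIs, 49.97 (22.9 to 94.9) and 80.7 (36.9 to 153) CPM, a ratio of 0.619 (0.218 to 1.76).

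**Figure D3:**
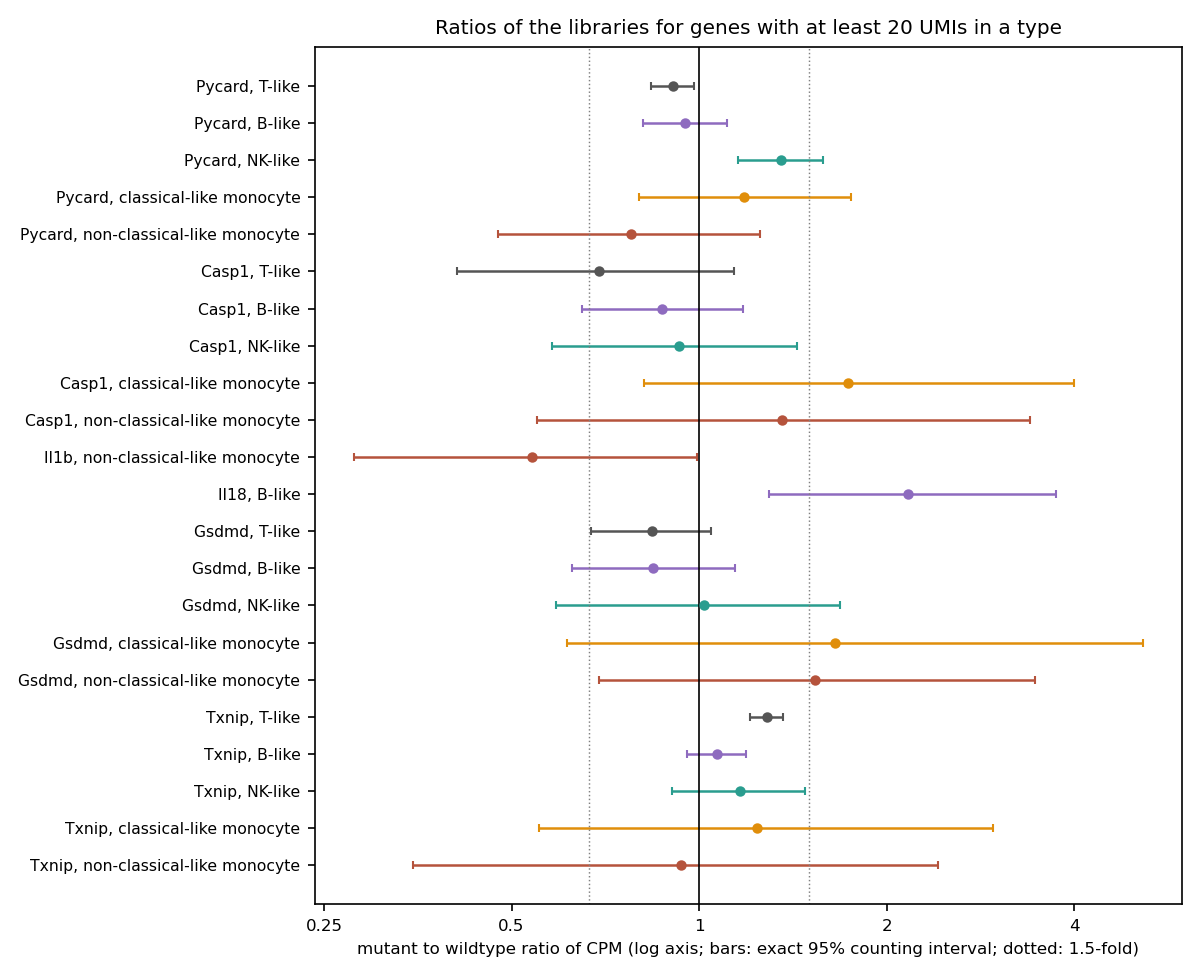
Mutant to wildtype ratio of CPM (horizontal log axis) for each gene and type with at least 20 UMIs over both libraries, with bars for the exact 95% counting interval and dotted lines at 1.5-fold. Il18 in B-like cells and Il1b in non-classical-like monocytes are past 1.5-fold with intervals off 1, and Txnip in T-like cells and Pycard in NK-like and T-like cells are off 1 but within 1.5-fold.

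The damping genes were near the floor. Il1rn (chr2:24336853-24351494, plus strand) had 1 mutant and 3 wildtype UMIs over the 5 types, 1 and 1 of them in non-classical-like monocytes. Il1r2 (chr1:40074079-40125231, plus strand) had 5 and 2 UMIs, with 2 and 0 in each monocyte type. For Il1r2 the 0 of the wildtype allows up to 26.9 CPM in classical-like and 18.9 CPM in non-classical-like monocytes, above the mutant 11.1 and 15.7 CPM. No difference was detectable at this depth. In the 10 wildtype neutrophil-like barcodes each of these genes had 3 UMIs.

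Gsdmd, the pore-forming effector (chr15:75862327-75867408, plus strand), had 680 UMIs. Over both libraries joined its level ran from 102 CPM in non-classical-like and 75.5 CPM in classical-like monocytes to 46.1 CPM in NK-like, 37.4 CPM in B-like and 29.1 CPM in T-like cells. Every pair of neighbours in that order had overlapping intervals. Types further apart could separate: joined non-classical-like monocytes (68.0 to 146 CPM) lay above NK-like cells (37.3 to 56.4 CPM). Within each library alone these 2 overlapped. Joined classical-like monocytes (47.3 to 114 CPM) lay above B-like cells (32.2 to 43.3 CPM), but the wildtype intervals overlapped. Free RNA held Gsdmd at 32.9 (mutant) and 43.4 (wildtype) CPM, and would give 8.44 of 134 and 20.2 of 216 UMIs in T-like cells. In classical-like monocytes it had 16 mutant and 6 wildtype UMIs, a ratio of 1.65 (0.614 to 5.15). Non-classical-like monocytes had 16 and 13, a ratio of 1.53 (0.691 to 3.46). Both ratios were past the fold with intervals that held 1, and with the monocytes taken as one the ratio was 1.49 (0.820 to 2.78). The lymphocyte ratios were 0.839 in T-like cells with 134 and 216 UMIs, 0.845 in B-like cells with 90 and 94, and 1.02 in NK-like cells with 20 and 75, and all 3 intervals held 1.

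Txnip (chr3:96557957-96561883, plus strand) had its highest level among the 5 types in lymphocytes. Over both libraries joined it stood at 346 CPM in T-like cells, then B-like (272 CPM), NK-like (183 CPM) and classical-like cells (103 CPM), each apart from the next. It was lowest in non-classical-like monocytes (73.5 CPM), which overlapped the classical-like ones. Within each library alone the NK-like and classical-like intervals overlapped. They were 165.1 to 253.5 and 67.83 to 171.5 CPM in the mutant, and 157.3 to 198.8 and 43.02 to 165 CPM in the wildtype. Outside the 5 types, the 10 wildtype neutrophil-like barcodes held 7 Txnip UMIs, 573 (230 to 1180) CPM, beside 309 CPM in wildtype T-like cells. Txnip had 5930 UMIs in the 5 types, the most of the 10 genes.

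In T-like cells Txnip had 2029 mutant and 2136 wildtype UMIs, 397 (380 to 415) and 309 (296 to 322) CPM. The mutant level was higher, with a ratio of 1.28 (1.21 to 1.37), within 1.5-fold. UMIs were found in 52.0% of mutant and 46.6% of wildtype T-like cells. Thinned to 800 UMIs per cell the ratio was 1.198 (1.08 to 1.33). Free RNA held Txnip at 235 and 271 CPM, and with it subtracted the ratio was 1.30 (1.22 to 1.38). The ratio in the other types was 1.07 (B-like), 1.16 (NK-like), 1.24 (classical-like) and 0.934 (non-classical-like), each with an interval that held 1.

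T-like cells with a UMI of Cd8a or Cd8b1 and none of Cd4 made up 42.2% of the mutant and 48.7% of the wildtype type, and they had less Txnip than the others. The mutant level was higher in each subset. It was 318 against 278 CPM in these Cd8 cells, a ratio of 1.14 (1.04 to 1.25). Cells with Cd4 and no Cd8 had 520 against 361 CPM, a ratio of 1.44 (1.22 to 1.71). Cells with neither had 460 against 345 CPM, a ratio of 1.33 (1.21 to 1.47). Whether the ratios of the subsets differ was not tested. The overlapping antisense gene Gm15441 had 43 and 40 UMIs in the 5 types.

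**Figure D4:**
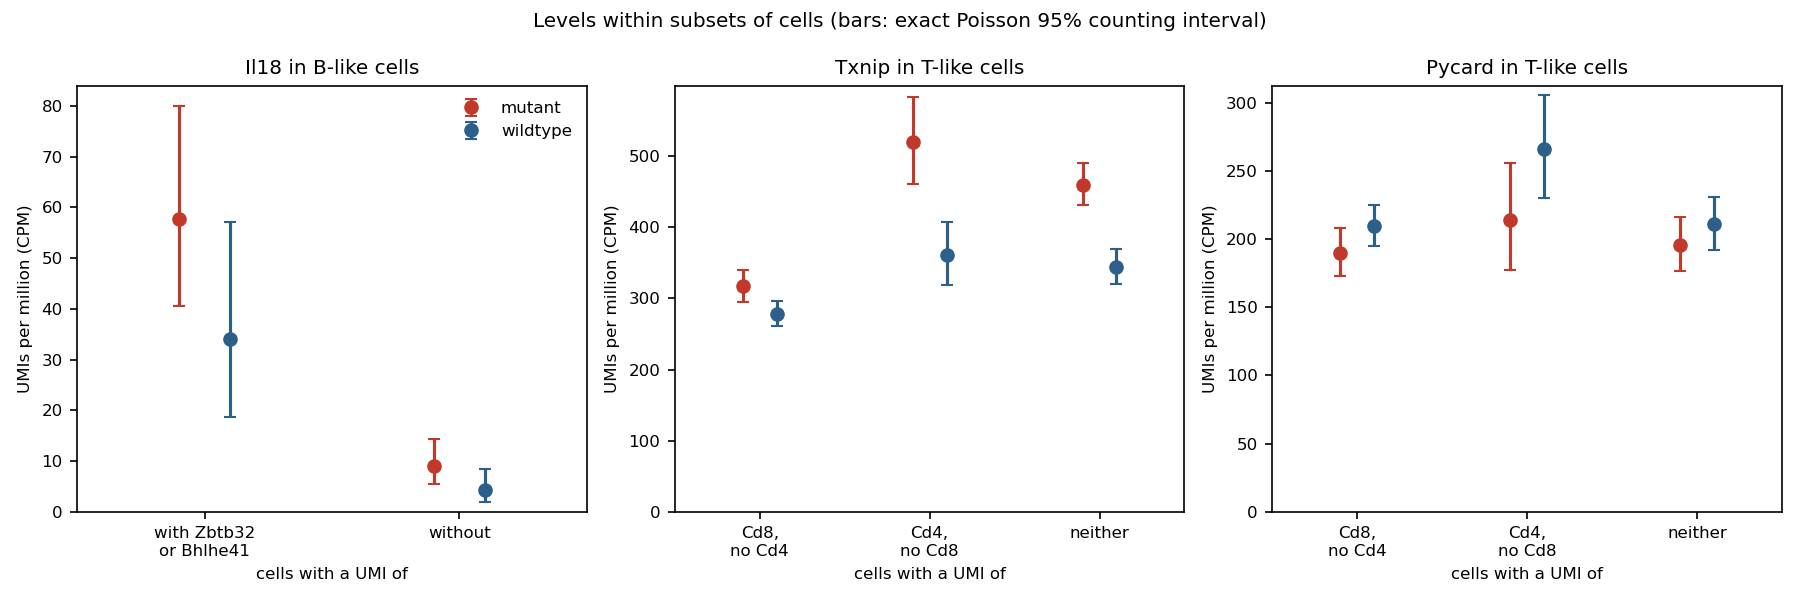
Levels (vertical axis, CPM) of Il18 in B-like cells with and without a UMI of Zbtb32 or Bhlhe41, and of Txnip and Pycard in T-like cells by their Cd4 and Cd8 UMIs, 1 point per library with 95% counting intervals. Mutant Il18 and Txnip are higher in every subset shown, and mutant Pycard has ratios of 0.907, 0.806 and 0.929, each with an interval that holds 1.

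Each count of members is read beside the same count over all genes. A gene was counted as past the fold when it had at least 20 UMIs over both libraries and a ratio of at least 1.5 in either direction. In T-like cells 0 of 4 counted members were past it, beside 8.71% of 9788 genes, 3.8% higher and 4.91% lower. In B-like cells it was 1 of 5 (Il18, higher), beside 11.6% of 8788 genes, 6.28% higher and 5.31% lower. In NK-like cells it was 0 of 4, beside 22.4% of 7080, 7.6% higher and 14.8% lower. In classical-like monocytes 2 of 4 were higher (Casp1 and Gsdmd), beside 24.3% of 2105 genes, 12.3% higher and 12% lower. In non-classical-like monocytes 1 of 5 was higher (Gsdmd) and 1 lower (Il1b), beside 22.3% of 2138, 10.6% higher and 11.7% lower. For the medians below, 0.5 UMIs were added to each count. The counted members' median log2 ratio was 0.46 in classical-like and -0.08 in non-classical-like monocytes. It was 0.14, -0.08 and -0.20 in the NK-like, B-like and T-like cells. Over all counted genes it lay between -0.03 and 0.02. Few members could be counted, since 5 or 6 of the 10 had under 20 UMIs in each type.

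A list of 39 further genes of the pathway, all matched, was read the same way. In T-like cells 25 had at least 20 UMIs, with 1 higher and 1 lower, beside 8.71% of all counted genes in either direction. Card9, an adaptor of innate receptors, had 29 and 16 UMIs, a ratio of 2.45 (1.29 to 4.83). Il18rap, a chain of the interleukin-18 receptor, had 32 and 70, a ratio of 0.618 (0.394 to 0.952). Free RNA held Il18rap at 12.6 (mutant) and 32.6 (wildtype) CPM, above its T-like levels of 6.26 and 10.1 CPM. The part of free RNA in this ratio was not tested. In NK-like cells the receptor chain gene Il18r1 stood at 124 and 119 CPM (mutant, wildtype) and Il18rap at 140 and 161 CPM, ratios of 1.04 (0.751 to 1.41) and 0.870 (0.646 to 1.16). In B-like cells 23 could be counted and 2 were past the fold, both higher, beside 11.6% of all counted genes in either direction. They were Irak4, a kinase downstream of interleukin-1 receptors, at 1.52 (0.944 to 2.49), and Ywhag, a 14-3-3 protein, at 1.68 (1.13 to 2.52).

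In NK-like cells 22 of the 39 could be counted, where 22.4% of all counted genes were past the fold in either direction. Of the 22, 3 were higher (Gsdme, Myd88 and Irak2) and 5 lower, among them Aim2, Casp4, Irak1 and Irak4. Only the interval of Irak1, a kinase of the same receptors, left out 1 among these 8, at 0.458 (0.202 to 0.917) with 9 and 75 UMIs. In classical-like monocytes 8 could be counted, with 1 higher and 1 lower, beside 24.3% of all counted genes in either direction. Pstpip1, a binding partner of pyrin, was at 1.98 (0.693 to 6.91), and Ywhaz, a 14-3-3 protein, at 0.505 (0.304 to 0.833). In non-classical-like monocytes 9 could be counted, where 22.3% of all counted genes were past the fold in either direction. Of the 9, 3 were higher, among them Ninj1 and Ywhae, and 3 lower, among them Myd88 and Ywhag. The 14-3-3 genes went in opposite directions there: Ywhae had 57 and 39 UMIs, a ratio of 1.82 (1.19 to 2.81), and Ywhag 4 and 17, a ratio of 0.293 (0.0717 to 0.898).

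The genes most like each member were taken over the 10 values of type and library, by Pearson's r of log2(CPM + 10) among 6879 genes with at least 200 UMIs. These points share libraries and depth, so r is a description. Pycard was most like Anapc11 (r = 0.956), Casp1 like Pnrc2 (0.961), Gsdmd like Creb3 (0.976) and Txnip like the ribosomal protein gene Rpl36 (0.978). The other members had too few UMIs for this measure.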

How the data were processed

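Peripheral blood mononuclear cells negative for DAPI and Ter119 were sorted and put through the 10x 3' v2 kit, per the labels' protocols, with 2000 cells targeted. The deposited values are raw UMI counts for 27998 genes and 737280 barcodes per library, counted by the authors with Cell Ranger 2.1.1 on mm10, per the submitters' processing notes. Gene positions are those of GENCODE on GRCm38, the same assembly.

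Cells needed at least 800 UMIs, 200 genes and at most 10% mitochondrial UMIs. A lineage needed at least 3 marker UMIs from 2 genes and 2 times the next lineage. Otherwise a barcode was left out as mixed (76 mutant, 129 wildtype) or as having no lineage (107, 108). Barcodes with globin at 5% or platelet markers at 1% of UMIs were set apart. This scoring was the second tried and was chosen after cell numbers and the genes' UMIs had been seen under both. In the first, globin and platelet lists competed as lineages with a factor of 3. Members and lists were chosen with earlier results of these data known. All 10 members are given in every type; list genes are named where past 1.5-fold with at least 20 UMIs, beside the interleukin-18 receptor genes, which were picked after their values were seen. Some list genes are not reported here.

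UMIs were summed per type. Levels carry exact Poisson, shares exact Clopper-Pearson and ratios exact conditional 95% intervals, for counting error only. A count of 0 is given the limit of 3 counts. The interval code was tested on simulated data. Doublets were kept, and Scrublet (scanpy 1.11.5) served as an alternative. It marked 69 mutant (1.65%) and 133 wildtype (2.55%) cells above 0.2. Other tools were numpy 2.4.6, scipy 1.17.1 and pandas 2.3.3.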

Additional observations from a re-analysis of the deposited data

Results flagged for a closer look

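Pycard had a mutant to wildtype ratio of 1.35 in NK-like cells and 0.907 in T-like cells. The intervals lay on opposite sides of 1, and the difference between the types was not tested. Thinned to 800 UMIs per cell both intervals held 1.

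Il1b appeared in barcodes outside the 5 types. The 2 mutant neutrophil-like barcodes held 9 UMIs, 4844 CPM (2215 to 9195), beside 126 CPM in the highest of the 5 types. The 10 wildtype ones held 62 UMIs, 5072 CPM (3888 to 6502), beside 234 CPM, and 9 of the 10 had a UMI. The levels of the libraries overlapped.

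Nlrp3 was likewise higher in basophil-like barcodes than in any of the 5 types of the same library. It had 9 UMIs in 17 mutant barcodes, 234 CPM (107 to 445), beside 55.5 CPM. In 13 wildtype barcodes it had 8 UMIs, 322 CPM (139 to 634), beside 35.9 CPM. In the mutant 4 of the 9 UMIs were in 1 barcode, while 7 of the 13 wildtype barcodes had at least 1.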

How the results depend on the processing

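No paired analysis was possible because each genotype has 1 library. For the 22 ratios with at least 20 UMIs, 295 alternatives were computed: 285 stayed within the interval of the reported ratio, 10 moved out of it, and 0 of the ratios past 1.5-fold changed direction. Thinned to 800 UMIs per cell, Pycard in T-like cells went to 1.01, Txnip in T-like cells to 1.198 and Casp1 in non-classical-like monocytes to 4.13 (3 and 1 UMIs). Under the first scoring, Pycard in classical-like monocytes went to 0.688 and Il1b in non-classical-like monocytes to 0.233. Among subsets, added after seeing the data as the first scoring was, Pycard went to 0.806 in Cd4 T-like cells and 0.792 in B-like cells with Zbtb32 or Bhlhe41, Casp1 to 1.27 in the latter, and Txnip to 1.14 in Cd8 and 1.44 in Cd4 T-like cells. Il18 in B-like cells ranged from 1.56 to 2.86 and Il1b in non-classical-like monocytes from 0.233 to 0.548. Of the ratios whose intervals held 1, several moved by over 1.5 times or to the other side of 1, among them Casp1 in T-like cells (0.485 to 1.06), Gsdmd in NK-like cells (0.945 to 1.58) and Txnip in classical-like (0.600 to 1.52) and non-classical-like monocytes (0.826 to 1.44).

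The number of members past the fold moved more, since it is small. In T-like cells it was 1 with at least 1500 UMIs per cell, 1 with mixed barcodes kept and 3 with no minimum of UMIs, against 0. In B-like cells it was 3 with no minimum, against 1. In NK-like cells it was 2 under the first scoring and 1 with no minimum, against 0. In classical-like monocytes it was 0 when thinned, at 2-fold or with at least 50 UMIs, 1 under the first scoring and 6 with no minimum, against 2. In non-classical-like monocytes it was 1 with at least 1500 UMIs per cell or at least 50 UMIs per gene, 0 when thinned or at 2-fold and 5 with no minimum, against 2. Thinning moved 64 of 100 shares of cells with a UMI. Depth limits Mefv, Il1rn and Il1r2 most, with 11, 4 and 7 UMIs.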
